A study of Mus musculus with 4 samples.

Results

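A set of 10 genes of the circadian clock were followed in mouse gastrocnemius, a mostly fast-fibred muscle of the calf. They comprised 8 clock repressors (Per1, Per2, Per3, Cry1, Cry2, Nr1d1, Nr1d2 and Ciart) and 2 output factors of the PAR bZIP family (Dbp and Tef), and each was read from its brightest transcript cluster annotated with a single gene symbol. Of these 10 genes, 9 had such a cluster, among 22180 genes on the array. The only cluster listed for Per2 carries a second gene symbol as well, so no value is given for Per2. All 9 passed the filter on low levels, which 13258 genes passed.

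Each of 4 groups was measured on 1 Affymetrix array. The groups were mice lacking KLF15 in skeletal muscle only (KO) given streptozotocin (STZ), wild-type mice (WT) given STZ, KO mice given vehicle and WT mice given vehicle. STZ kills pancreatic beta cells, the source of insulin, and so leaves mice diabetic. It was injected intraperitoneally at 50 mg/kg in 50 mM sodium citrate of pH 4.5 on 5 consecutive days, vehicle mice received the citrate, and muscle was taken 3 weeks after treatment. The labels used here do not give the promoter that drives the muscle deletion, the age, sex and number of animals behind each array, or the time of day of collection. With 1 array per group there is no error between animals, no test was possible, and higher and lower below describe single arrays.

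The circadian clock of mammals is a transcriptional feedback loop. CLOCK and BMAL1 (the product of Arntl) bind E-box sequences and switch on the Per and Cry genes, whose proteins then repress that activation, while NR1D1 and NR1D2 (REV-ERB alpha and beta) repress Arntl through ROR response elements. DBP and TEF carry the rhythm to further genes through D-box sequences. Muscle has a clock of its own, the levels of most of these transcripts swing over the day, and Klf15 is itself known as a rhythmic gene. A difference between animals in time of day and a difference between groups cannot be told apart in these data.

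The upstream sequences of 3 members are shown because they carry the elements of this loop most plainly. They are the 250 bases before the RefSeq transcription start (build GRCm38.p6), 5′ to 3′ on the gene's strand, with E-boxes (CACGTG) and D-boxes (TTATGTAA) in capitals. Cry1 lies on chromosome 10 (chr10:85185055-85185304, minus strand), Ciart on chromosome 3 (chr3:95882229-95882478, minus strand) and Per3 on chromosome 4 (chr4:151044666-151044915, minus strand).
Cry1: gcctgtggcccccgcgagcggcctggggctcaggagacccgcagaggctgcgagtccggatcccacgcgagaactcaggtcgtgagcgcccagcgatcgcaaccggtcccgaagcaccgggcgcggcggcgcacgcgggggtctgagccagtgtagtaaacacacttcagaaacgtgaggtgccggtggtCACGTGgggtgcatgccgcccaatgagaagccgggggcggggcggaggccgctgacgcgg
Ciart: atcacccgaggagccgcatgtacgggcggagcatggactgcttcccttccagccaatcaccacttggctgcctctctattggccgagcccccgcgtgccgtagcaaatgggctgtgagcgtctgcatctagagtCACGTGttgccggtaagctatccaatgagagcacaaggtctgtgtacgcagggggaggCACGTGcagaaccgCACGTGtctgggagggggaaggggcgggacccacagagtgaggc
Per3: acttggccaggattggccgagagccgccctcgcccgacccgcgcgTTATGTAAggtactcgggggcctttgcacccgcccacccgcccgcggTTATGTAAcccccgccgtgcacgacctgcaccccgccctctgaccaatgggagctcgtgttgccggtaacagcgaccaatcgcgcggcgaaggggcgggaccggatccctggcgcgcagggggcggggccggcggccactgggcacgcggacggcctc
Cry1 held 1 E-box, whose first base lay 60 bases before the start. Ciart held 3 E-boxes, beginning 116, 58 and 44 bases before the start. Per3 held 2 D-boxes, beginning 205 and 158 bases before the start, and no E-box.

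Both strands were searched, and none of the 4 motifs used contains another. All 9 measured members had an upstream sequence, with 11 RefSeq entries in all because Per1 and Tef have 2 each. An E-box was found in 5 of 11 entries, those of Cry1, Ciart, Tef (both) and Per1 (1 of its 2), against 6.02% of 32851 upstream sequences of the same length. A D-box was found in 1 of 11 entries, that of Per3, against 0.819%. The half-site of the ROR element (AGGTCA) occurred in 2 entries, of Nr1d2 and Per1, against 14.0%. The CACCC box, the kind of sequence that KLF proteins bind, occurred in 9 of 11 entries, against 52.0% of all. These matches describe letters in a window and were not tested as binding sites.

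Klf15, the deleted gene, had an intensity of 16.0 in KO STZ against 72.1 in WT STZ, and of 19.8 in KO vehicle against 50.5 in WT vehicle. The labels used here do not say whether its cluster lies in the deleted part. Median intensity lay between 5.73 and 5.96 on the 4 arrays. Differences are given on the scale log2(intensity + 3.69), where a change of 0.58 is 1.5-fold, and they understate changes of dim genes.

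The clock genes differed little between the 4 arrays, and Cry1 was the exception. For the other 8 members, the highest intensity among the arrays was 1.10 to 1.30 times the lowest, and for Cry1 it was 1.68 times. On the log2 scale the range over the 4 arrays was 0.66 for Cry1, and 4.93% of all genes had a range as wide or wider. The median range of all genes was 0.29, which 6 of the 9 members stayed under and 3 (Cry1, Cry2 and Dbp) exceeded.

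**Figure D1:**
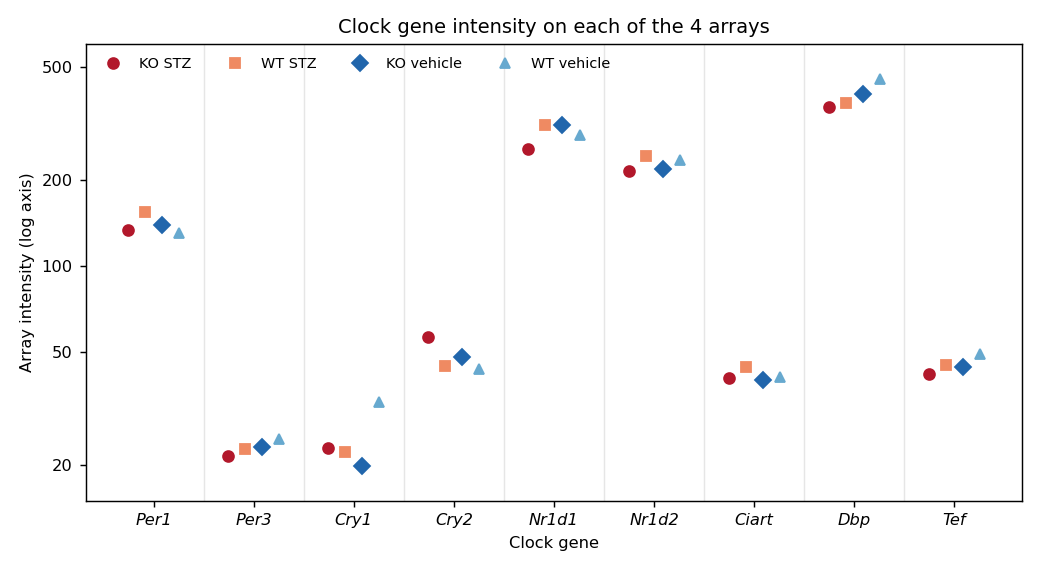
Intensity (log axis) of the 9 measured clock genes, 1 point per array, with KO STZ, WT STZ, KO vehicle and WT vehicle from left to right within each gene. Intensities of different genes depend on their probes and are not to be set against each other; within genes the points lie close together except for Cry1, which stood at 19.8 to 22.9 on the KO STZ, WT STZ and KO vehicle arrays and at 33.4 in WT vehicle.

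Among the cryptochromes, which repress CLOCK and BMAL1 most strongly, the paralogs behaved unlike each other. Cry1 had an intensity of 22.9 in KO STZ and 22.2 in WT STZ, and of 19.8 in KO vehicle and 33.4 in WT vehicle. The WT vehicle array stood apart from the other 3, which spanned 0.18 on the log2 scale. It exceeded the next highest array by 0.48. Of 13258 genes, 2.23% had an array, whichever it was, at least that far above or below the other 3. In 24 genes (0.181%) WT vehicle stood as far above the other arrays, a share whose array and direction were taken from Cry1 itself. Cry1 was thus lower in KO than in WT under vehicle (-0.66) and lower in WT STZ than in WT vehicle (-0.52), and both differences use that same WT vehicle array. Between the KO STZ and WT STZ arrays Cry1 differed by 0.038.

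Cry2 had an intensity of 56.2 in KO STZ and 44.5 in WT STZ, and of 47.9 in KO vehicle and 43.3 in WT vehicle. Its KO array was above the WT array under both treatments, by 0.31 with STZ and 0.13 with vehicle. STZ was above vehicle by 0.22 in KO. In WT the STZ array differed from vehicle by 0.037, which turned to -0.0036 under quantile normalization. Cry2 and Cry1 were the pair of members with the most distant profiles, 0.66 apart as Euclidean distance between log2 values centred on each gene's mean. A further cluster that lists Cry2 also lists a second gene and was not used.

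The period genes, whose proteins act with the cryptochromes, were close to level. Per1, which glucocorticoids and cAMP signalling also induce, had an intensity of 134.1 in KO STZ and 154.5 in WT STZ, and of 139.3 in KO vehicle and 130.3 in WT vehicle. KO STZ lay 0.054 below KO vehicle, while WT STZ, the highest array, stood 0.24 above WT vehicle. Under quantile normalization and loess the KO difference was above 0, reaching 0.013. Per3 had an intensity of 21.5 in KO STZ and 22.7 in WT STZ, and of 23.3 in KO vehicle and 24.8 in WT vehicle. No difference of Per3 between 2 arrays of one comparison exceeded 0.11 in size.

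The REV-ERB receptors, haem-binding repressors that also influence oxidative capacity of muscle, had their lowest deposited values on the KO STZ array, which for Nr1d2 depended on scaling. Nr1d1 had an intensity of 257.8 in KO STZ and 310.7 in WT STZ, and of 310.8 in KO vehicle and 288.0 in WT vehicle. KO STZ stood 0.27 below WT STZ and 0.27 below KO vehicle, and the other 3 arrays lay close together. The first of these differences was -0.071 under quantile normalization and -0.097 under loess. Nr1d1 overlaps Thra on the opposite strand, and the files used here do not name the strand of the probes. Nr1d2 had an intensity of 214.9 in KO STZ and 242.7 in WT STZ, and of 219.0 in KO vehicle and 235.6 in WT vehicle. Both KO arrays lay below both WT arrays, by 0.17 with STZ and 0.10 with vehicle, but the difference with STZ was 0.021 under quantile normalization. Its KO STZ array lay 0.027 below KO vehicle as deposited, and above it by 0.036 under quantile normalization and 0.038 under loess.

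Ciart, also known as CHRONO, which binds BMAL1 and represses its targets, varied least. It had an intensity of 40.4 in KO STZ and 44.1 in WT STZ, and of 39.9 in KO vehicle and 40.7 in WT vehicle. Its range was 0.13, and 90.2% of all genes varied as much or more over the 4 arrays.

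The PAR bZIP factors Dbp and Tef shared one order of arrays at the ends. Dbp had an intensity of 359.8 in KO STZ and 372.7 in WT STZ, and of 399.0 in KO vehicle and 453.0 in WT vehicle. Tef had an intensity of 41.9 in KO STZ and 44.9 in WT STZ, and of 44.2 in KO vehicle and 49.1 in WT vehicle. Both were highest in WT vehicle and lowest in KO STZ, as was Per3, which makes 3 of 9 members against 10.4% of all genes. That order was taken from Dbp and Tef themselves, so the count beside the share is a description only. The low end depends on scaling, since KO STZ lay above WT STZ by 0.15 for Dbp and 0.0040 for Tef under quantile normalization, and by 0.13 for Dbp under loess. The member with the nearest profile to Per3 was Tef, at a distance of 0.047, and the nearest to Dbp was Tef as well, at 0.13.

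STZ stood below vehicle in both genotypes for both factors. Dbp differed by -0.15 in KO and -0.28 in WT, and Tef by -0.072 in KO and -0.12 in WT. These signs held under all 7 alternatives for both genes. For Tef in KO the value came close to 0, at -0.0025 under quantile normalization and -0.0072 when all clusters were averaged. In WT, 18.9% of all genes differed between STZ and vehicle by as much as Dbp or more, and 55.3% by as much as Tef. In KO these shares were 45.4% for Dbp and 70.9% for Tef, so such sizes were common on these arrays. Tef has a second, dim cluster with intensities from 4.80 to 5.85, in which KO STZ stood 0.058 above KO vehicle and WT STZ 0.17 below WT vehicle.

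**Figure D2:**
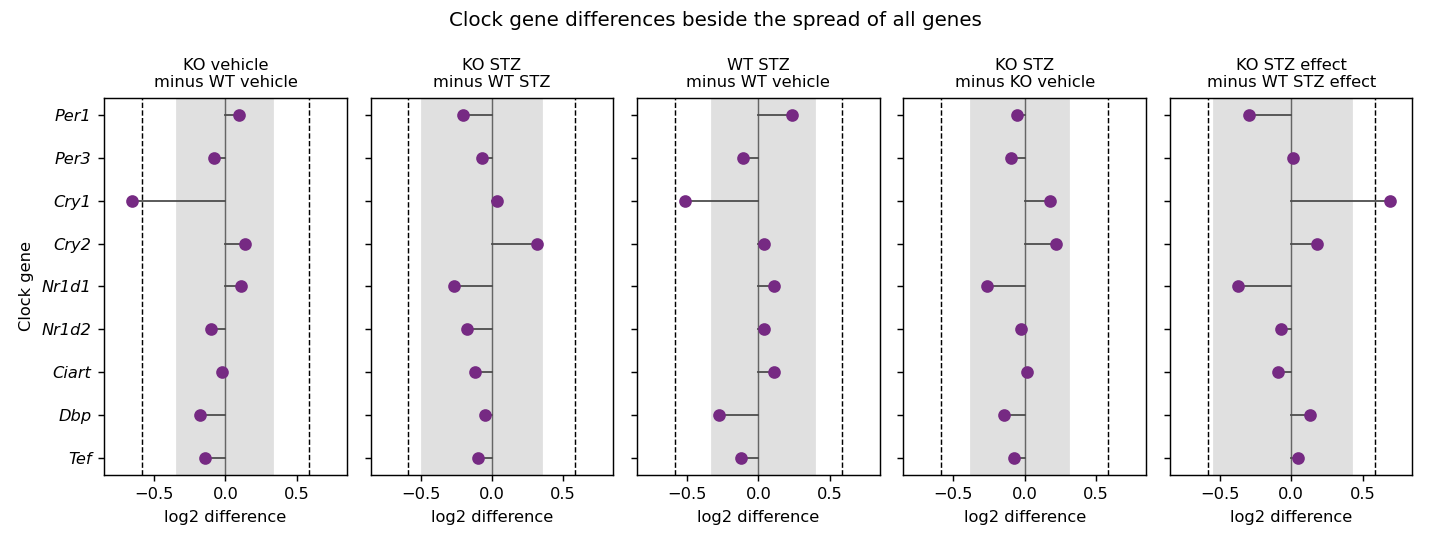
Log2 differences of the 9 clock genes (points) in 5 comparisons, with the range from percentile 5 to percentile 95 of 13258 genes shaded and dashed lines at 1.5-fold. Cry1 lies past 1.5-fold in KO vehicle minus WT vehicle and in the difference between STZ effects; all other points lie inside the dashed lines.

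The first comparison set KO against WT under vehicle. Cry1 was lower in KO, and the other clock genes showed small differences of mixed sign. Of the 9 members, 1, Cry1, was at least 1.5-fold lower in KO, where 0.777% of all genes were, and 0 were at least 1.5-fold higher, where 0.581% were. The median was -0.080 over the members, -0.0039 over all genes and -0.014 over the 7212 genes above level percentile 75. In 0.815% of all genes the difference was as large as that of Cry1 or larger in either direction. The next largest was Dbp at -0.18, a size that 34.2% of genes reached.

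The second comparison set KO against WT under STZ. No clock gene stood far apart, and Cry2 was the highest and Nr1d1 the lowest in KO relative to WT. Here 0 of 9 members were 1.5-fold lower, where 2.81% of all genes were, and 0 were 1.5-fold higher, where 0.845% were. Over all genes those were 112 higher and 372 lower, and 155 higher and 243 lower under quantile normalization, or 136 and 253 under loess. The median of the members was -0.094, against -0.048 over all genes and -0.11 over the 7212 genes above level percentile 75, to which all 9 members belong. Cry2 at 0.31 and Nr1d1 at -0.27 were the largest, and 21.0% and 28.0% of genes, in that order, differed as much or more.

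The 2 comparisons of genotype share no array. Per3, Nr1d2, Ciart, Dbp and Tef were lower in KO under both treatments, where the STZ difference of Nr1d2 and Tef turned above 0 under quantile normalization and that of Dbp under quantile normalization and loess. That made 5 of 9 members, and 32.6% of all genes were lower in both. No share is given for the genes above level percentile 75, to which all 9 members belong. Cry2 was higher in KO under both treatments, as were 23.7% of all genes. Both KO arrays lay below both WT arrays in 3 of 9 members (Nr1d2, Ciart and Tef) and in 23.9% of all genes, and above both in 1 member (Cry2) and in 15.8% of all genes.

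The third comparison set STZ against vehicle in WT. No member reached 1.5-fold on the offset scale, where 1.27% of all genes were that much higher and 0.445% that much lower. Over all genes those were 169 higher and 59 lower, and 122 and 69 under quantile normalization. Cry1 came nearest at -0.52, a size that 2.92% of genes reached, and without the offset its intensity differed by -33.3%, which is a ratio of 1.5. Per1 at 0.24 and Dbp at -0.28 followed. The members' median was 0.037, against 0.0075 over all genes and 0.035 over the 7212 genes above level percentile 75.

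The fourth comparison set STZ against vehicle in KO. Again 0 of 9 members reached 1.5-fold, where 0.445% of all genes were that much higher and 0.656% that much lower. Nr1d1 at -0.27, Cry2 at 0.22 and Cry1 at 0.18 were the largest, and 19.2% of genes differed as much as Nr1d1 or more. The members' median was -0.054, against -0.032 over all genes and -0.063 over the 7212 genes above level percentile 75. Across both genotypes, which share no array, Per3, Dbp and Tef were lower with STZ, as were 28.3% of all genes in both. Cry2 and Ciart were higher with STZ in both, as were 22.8% of genes, but Cry2 turned below 0 in WT under quantile normalization and Ciart turned below 0 in KO under median centring.

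The last comparison was the difference between STZ effects, KO minus WT. Cry1 stood at 0.69, the 1 member past 1.5-fold, on the higher side, where 1.76% of all genes were, and 0 were past it on the lower side, where 3.91% were. Over all genes those were 233 and 519, and 289 and 369 under quantile normalization. For Cry1 the STZ effect was 0.18 in KO and -0.52 in WT. The WT effect uses the single WT vehicle array on which Cry1 stood apart, and the KO STZ and WT STZ arrays differed by 0.038. Nr1d1 stood at -0.37, from -0.27 in KO and 0.11 in WT. Per1 stood at -0.29, and at -0.15 under quantile normalization and -0.18 under loess. Sizes as large as those of Cry1, Nr1d1 and Per1 were reached by 3.00%, 19.8% and 30.1% of genes, in that order.

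How closely single clusters read a gene can be judged from 518 genes with 2 or more single-symbol clusters above the filter. The 2 brightest clusters of such a gene gave differences that lay a median of 0.14 apart for KO against WT under vehicle, and 0.56 apart at percentile 95. The corresponding gaps for the difference between STZ effects were 0.24 and 0.87. These gaps hold probe and splicing differences within an array, not the spread between animals. Cry1, read by a single cluster, lay beyond the first percentile 95 and within the second, and the differences of the other members were all below both.

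**Figure D3:**
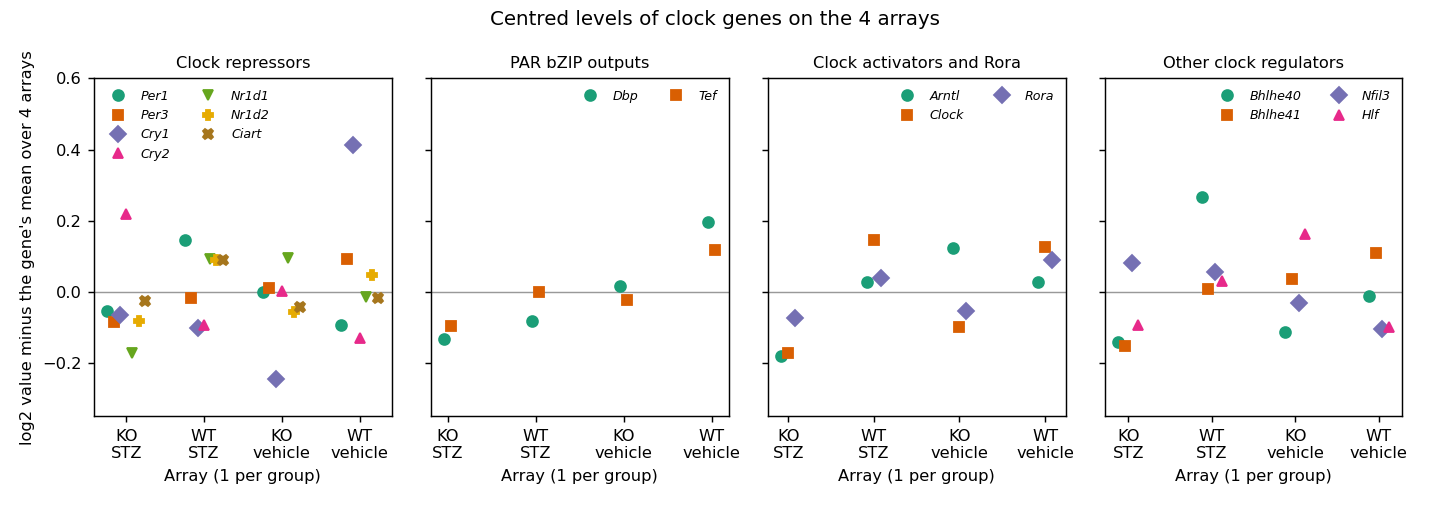
Log2 values of clock genes minus each gene's mean over the 4 arrays, in 4 panels for the repressors, the PAR bZIP outputs, the activators with Rora, and other clock regulators, with 1 point per gene and array. Cry1 in WT vehicle is the highest point, and Arntl runs from -0.18 in KO STZ to 0.12 in KO vehicle.

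On the activating side of the loop, Arntl and Clock ranged over 0.30 and 0.32 on the log2 scale across the 4 arrays. Of 5 activators and ROR receptors with a single-symbol cluster, 3 passed the level filter. Past 1.5-fold there were 0 of 3 in each of the 5 comparisons, where 0.445% to 3.91% of all genes were, in a given direction. In KO STZ against WT STZ all 3 were lower, as were 58.1% of all genes. Their median was -0.21, against -0.12 over the 7 measured repressors, -0.048 over all genes and -0.11 over the 7212 genes above level percentile 75. Under the alternatives the median of these 3 genes ran from -0.25 to -0.11. Arntl had an intensity of 42.3 in KO STZ and 49.5 in WT STZ, and of 53.1 in KO vehicle and 49.5 in WT vehicle. Its KO STZ array was lowest, 0.30 below KO vehicle and 0.21 below WT STZ. Clock had an intensity of 133.7 in KO STZ and 167.5 in WT STZ, and of 140.9 in KO vehicle and 165.2 in WT vehicle, so both KO arrays lay below both WT arrays, by 0.32 with STZ and 0.22 with vehicle, a pattern that 23.9% of all genes shared. Rora, an activator of Arntl through ROR elements, differed by at most 0.14 in size in any comparison. Npas2, a CLOCK paralog, and Rorb lay below the level filter.

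A further 4 transcription regulators of the clock were all measured, and 0 of 4 passed 1.5-fold in any of the 5 comparisons. The share of all genes that did so in a given direction was 0.445% to 3.91%. Bhlhe40 (DEC1), an E-box repressor, had an intensity of 268.9 in KO STZ and 358.2 in WT STZ, and of 274.4 in KO vehicle and 294.9 in WT vehicle. The WT STZ array was the highest, as for Per1, and KO STZ stood 0.41 below it. Its relative Bhlhe41 (DEC2) stood at -0.16 in that comparison. Nfil3, which opposes the PAR bZIP factors at D-boxes, was higher with STZ by 0.11 in KO and 0.16 in WT, where Dbp and Tef were lower. Such sizes were common, since 56.6% of all genes in KO and 42.2% in WT differed as much as Nfil3 or more. Hlf, the remaining PAR bZIP factor, was lower with STZ by 0.26 in KO and higher by 0.13 in WT.

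Kinases and ubiquitin ligases that act on clock proteins showed 0 of 5 counted genes past 1.5-fold in the 5 comparisons. Of all genes, 0.445% to 3.91% were past it in a given direction. Csnk1e, a casein kinase that phosphorylates PER proteins, had an intensity of 36.2 in KO STZ and 48.4 in WT STZ, and of 36.2 in KO vehicle and 52.5 in WT vehicle. Its KO arrays lay below its WT arrays by 0.39 with STZ and 0.50 with vehicle, and did not overlap them, as in 23.9% of all genes. Csnk1a1, Csnk2a1, Btrc and Gsk3b differed by at most 0.32 in size. Fbxl21 lay below the filter, and Csnk1d was not analysed here.

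Broadly rhythmic genes and known muscle outputs of the clock were all 9 measured, and 0 passed 1.5-fold in the 5 comparisons. Of all genes, 0.445% to 3.91% passed it in a given direction. Usp2, a deubiquitinase gene with a strong daily rhythm in many tissues, had an intensity of 609.9 in KO STZ and 582.4 in WT STZ, and of 665.2 in KO vehicle and 701.8 in WT vehicle. It was lower with STZ by 0.12 in KO and 0.27 in WT, close to the values of Dbp. Hk2, the hexokinase of muscle glucose uptake, was lower with STZ by 0.49 in KO and 0.39 in WT. Pdp1, a phosphatase that activates pyruvate dehydrogenase, was higher with STZ by 0.29 in both genotypes and lower in KO by 0.35 under both treatments. Tspan4, a tetraspanin gene, stood at -0.52 for STZ in KO and -0.19 in WT. Wee1, a cell cycle kinase gene driven through E-boxes, stood at 0.11 for KO against WT under STZ and 0.42 under vehicle. Tsc22d3, Nampt, Myod1 and Tcap differed by at most 0.19 in size in the 4 pairwise comparisons.

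Glucocorticoids reset peripheral clocks and induce Per1, so a list of their target genes was set beside the members. In KO, 0 of 12 genes passed 1.5-fold with STZ, where 0.445% of all genes were that much higher and 0.656% that much lower. The median was 0.14, against -0.032 over all genes. In WT, 3 were at least 1.5-fold higher with STZ than with vehicle (Mt2 at 0.76, Errfi1 at 0.73 and Cdkn1a at 0.66), where 1.27% of all genes were, and the median was 0.22, against 0.0075 over all genes. Tsc22d3, a classical glucocorticoid target, stood at 0.16 in KO and -0.016 in WT, and Fkbp5, another, at 0.10 in KO and 0.17 in WT. Mt1, a metallothionein gene like Mt2, stood at 0.12 in KO and 0.47 in WT. Klf9 stood at -0.15 in KO and -0.19 in WT, and Zbtb16 at -0.24 in KO and -0.16 in WT. In all, 8 of 12 genes were above 0 in KO, where 42.8% of all genes were and Per1 stood at -0.054. In WT 8 of 12 were above 0 as well, where 51.5% of all genes were and Per1 stood at 0.24.

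Immediate early genes, which respond to activity and handling within minutes and share inducers with Per1, included larger differences than any clock member. Of 9 genes, 3 lay 1.5-fold or more below WT in KO STZ (Egr1 at -2.15, Btg2 at -0.97 and Fos at -0.66), where 2.81% of all genes did. In KO vehicle 3 did so (Fos at -0.86, Egr1 at -0.79 and Junb at -0.60), where 0.777% of all genes did. With STZ in KO, 0 of 9 passed 1.5-fold, where 0.445% of all genes were that much higher and 0.656% that much lower. With STZ in WT, 2 were at least 1.5-fold higher (Egr1 at 0.95 and Btg2 at 0.80), where 1.27% of all genes were. Whether these genes and Per1 moved for a common reason was not tested.

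By the rule used for likeness, the 5 genes nearest to Cry1 were Mapk4, Cln3, Bloc1s2, Cd209c and Arhgef16, at Euclidean distances of 0.084 to 0.11 over the 4 arrays. All 5 were dim, and their highest array was WT vehicle, with intensities from 9.55 for Mapk4 to 17.2 for Bloc1s2 there. With 4 arrays and 13258 genes such likeness is a description only. The nearest clock member to Cry1 was Dbp, at 0.35.

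The muscle markers were present on all arrays, and the summed intensity of 8 fast fibre genes was 49148 in KO STZ and 48706 in WT STZ, and 49227 in KO vehicle and 50512 in WT vehicle. On the KO STZ array 5 of 9 members were lowest, against 33.7% of all genes, and under quantile normalization 2 of 9 were (Per3 and Nr1d1), against 25.9%. All 9 members lie above level percentile 75, where the median of KO STZ minus WT STZ was -0.11, against -0.048 over all genes. The KO STZ array had the lowest sums of slow fibre and adipocyte genes. The 6 slow fibre genes summed to 913 in KO STZ and 1459 in WT STZ, and to 1128 in KO vehicle and 1445 in WT vehicle. The 5 adipocyte genes with a cluster summed to 119 in KO STZ and 169 in WT STZ, and to 196 in KO vehicle and 159.9 in WT vehicle, and Lep lay below the level filter. WT vehicle, the array on which Cry1 stood apart, had the lowest sum of macrophage genes (160.4, against 163.9 to 192.0 on the other arrays). Its sum of fibroblast and tendon genes was also the lowest (2484, against 2726 to 2828). Single markers were mixed. Cd68, Csf1r, C1qa, Pdgfra, Tnmd and Fmod were lowest in WT vehicle, while Adgre1, Mrc1, Cd163, Dcn, Col1a1 and Scx were not. Endothelial sums ran from 611 in WT STZ to 726 in KO vehicle. Satellite cell sums ran from 69.8 in WT vehicle to 75.4 in KO vehicle. Sums of the 2 nerve genes ran from 18.3 in KO vehicle to 22.8 in WT vehicle. The part of these markers in the values of the clock genes was not tested, and in bulk muscle fewer cells of a type and less RNA per cell cannot be told apart.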

How the data were processed

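Total RNA of gastrocnemius was labelled with biotin from 4 ug and hybridised to Affymetrix arrays, per the labels' protocols. The deposited table gives a linear intensity for each of 41345 transcript clusters on every array. The authors' background correction, probe summary and scaling of the deposited intensity values remain unknown (not given in the sources used here).

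Of the clusters, 23521 had 1 gene symbol, 1814 several and 16010 none in the annotation used. Values were turned into log2(intensity + 3.69), the offset being percentile 25 of all values. Array medians lay within 0.035 on that scale, and no scaling was added. The bright end was less even. Percentile 95 of intensity was 179.4 on KO STZ, 206.8 on WT STZ, 188.6 on KO vehicle and 195.4 on WT vehicle. A gene was its brightest single-symbol cluster, and the 13258 of 22180 genes with a mean above the median of all clusters (intensity 5.81) were counted. Differences were counted at 1.5-fold, without a test, since the number of arrays limits the precision. The counting was tested on simulated data.

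All clock members are described. Every gene of a list of up to 9 could be named, and from the longer list the 4 with the largest differences. Tsc22d3, Fkbp5, Klf9 and Zbtb16 were added to that list's account after their values were seen. Members and lists were chosen with earlier results of these data known. Alternatives were 2 other offsets, median centring, quantile normalization, loess (span 0.3), averaging all clusters of a gene and no level filter. Python 3.11.15, pandas 2.3.3 and statsmodels 0.14.6 were used.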

Additional observations from a re-analysis of the deposited data

Results flagged for a closer look

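In 3 clock genes, the STZ and genotype differences had opposite signs in the 2 groups in which they were measured. With 1 array per group any opposite signs qualify, and the differences were not tested. Opposite signs were common, in 43.7% of all genes for the genotype differences and 48.9% for the STZ differences. These shares include the few genes with equal values on a pair of compared arrays. The difference between STZ effects, KO minus WT, was 0.69 for Cry1, -0.37 for Nr1d1 and -0.29 for Per1. The same 3 values are the KO difference under STZ minus that under vehicle, which was also of opposite sign for these genes. For Cry1 the value uses the single WT vehicle array on which it stood apart. Its KO difference under STZ was close to level, at 0.038 and at 0.0021 under median centring, and 87.3% of all genes differed as much or more. For Nr1d2 the STZ effects had opposite signs as well, and the value was -0.069, which turned to 0.060 under quantile normalization. For Per1 the signs of the STZ effects were no longer opposite under quantile normalization and loess.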

How the results depend on the processing

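Under the 7 alternatives, the counts of clock members past 1.5-fold were the same as reported in all 5 comparisons, and the members' medians moved by less than 0.1 on the log2 scale, though 4 of the 5 medians changed sign. The difference of Cry1 between KO and WT under vehicle ranged from -0.72 to -0.61, and its difference between STZ effects from 0.65 to 0.77. Of the 45 member differences, 11 changed sign under at least 1 alternative, the largest of them being -0.17 (Nr1d2, KO STZ against WT STZ), and the largest move of any was 0.205 (Dbp, KO STZ against WT STZ, under quantile normalization). Counts over all genes moved more. With an offset of 1, counts past 1.5-fold (higher, then lower) were 141 and 176 for KO against WT under vehicle (77 and 103 as reported), 145 and 168 for STZ in KO (59 and 87), and 258 and 120 for STZ in WT (169 and 59), and counts on the higher side were 211 under STZ (112) and 454 for the difference between STZ effects (233). With the offset at percentile 50, they were 47 higher under vehicle, 71 higher under STZ, 33 higher and 54 lower for STZ in KO, and 149 higher for the difference between STZ effects. Quantile normalization gave 243 lower for KO against WT under STZ, against 372. No paired analysis was possible because each group has 1 array. For the same reason no replicate could be left out.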

Other observations

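Arntl had the same intensity, 49.5, on the WT STZ and WT vehicle arrays to every deposited digit. Such ties occurred in 186 of 41345 clusters for that pair of arrays and in 154 to 192 clusters for the 6 pairs, so they are no feature of Arntl. The sources used here do not name the processing step that leaves such ties.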
